A study of Mus musculus with 2 samples.

Results

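Accessible chromatin was described around 10 genes that are mutated or rearranged in myeloid leukaemia, in granulocyte monocyte progenitors (GMP) of the mouse, from which neutrophils and monocytes are made in the bone marrow. The genes were Dnmt3a, Tet2, Asxl1, Ezh2, Kmt2a, Bcor, Idh1, Idh2, Npm1 and Nras, 10 of 21670 protein-coding genes tested. Around each gene, regions were taken whose summit lay in the gene body or within 30 kb of it, which gave 77 of the 75148 regions in the list made from both replicates. Shares of all regions are over the 75129 of them on the autosomes and the X chromosome. The series measured 1 group by ATAC-seq, in which the Tn5 transposase cuts open DNA and the cut fragments are sequenced. Both samples came from male adult C57BL/6J mice of 5 to 6 weeks, with no mutant allele or treatment named in the labels, and each used 50000 cells. They were biological replicates with separate biosample identifiers and the same donor label, and the sources used here give no sorting markers. There is no contrast between conditions, so the results are levels, positions and their repeat in the 2 replicates, with no test.

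These genes act at several layers of gene control. Dnmt3a adds methyl groups to cytosines in DNA and Tet2 oxidises them, while Ezh2, Kmt2a, Asxl1 and Bcor write, erase or bind marks on histones as parts of the Polycomb and Trithorax systems. Idh1 and Idh2 supply alpha-ketoglutarate, which Tet2 needs, and their mutant forms in human leukaemia make a related acid that inhibits it. Npm1 is a nucleolar chaperone whose mutant form moves to the cytoplasm, and Nras is a small GTPase that carries growth factor signals.

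Each region carries a fold enrichment from the authors, and the sources used here do not say what it is divided by. It was used to describe and rank regions within a list. The series-level list was called on both replicates together, and each replicate also has its own list, of 65423 regions for replicate 1 and 53686 for replicate 2. The files hold no read counts, so depth is unknown, and a region missing from a list is one that did not pass its threshold. In bulk samples, fewer cells with an open site and less accessibility per cell cannot be told apart. All 13 listed genes of GMP and myeloid cells (Mpo, Elane, Cebpa and others) had an open promoter in both replicates. So did 0 of 5 T cell, 0 of 4 hepatocyte and 0 of 4 muscle genes, 2 of 5 B cell genes (Pax5 and Ebf1), 2 of 5 erythroid genes and 1 of 4 megakaryocyte genes. The part of other cells in the results was not tested.

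All 10 genes had an open promoter, meaning a summit within 1000 bp of an annotated start of a protein-coding transcript. This held in the series-level list, where 61.4% of all protein-coding genes had one, and also in the list of replicate 1 (all genes 60.0%), in that of replicate 2 (all genes 56.6%) and thus in both (all genes 56.1%). The genes differed widely in strength. Taking the promoter region with the highest fold of each gene, the median over the 10 genes was 10.96, against 10.2 over all open genes, whose quartiles were 7.89 and 12.6. Nras, Idh1, Npm1 and Ezh2 lay above the upper quartile, Tet2 and Bcor below the lower one, and Dnmt3a, Asxl1, Idh2 and Kmt2a between them.

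**Figure D1:**
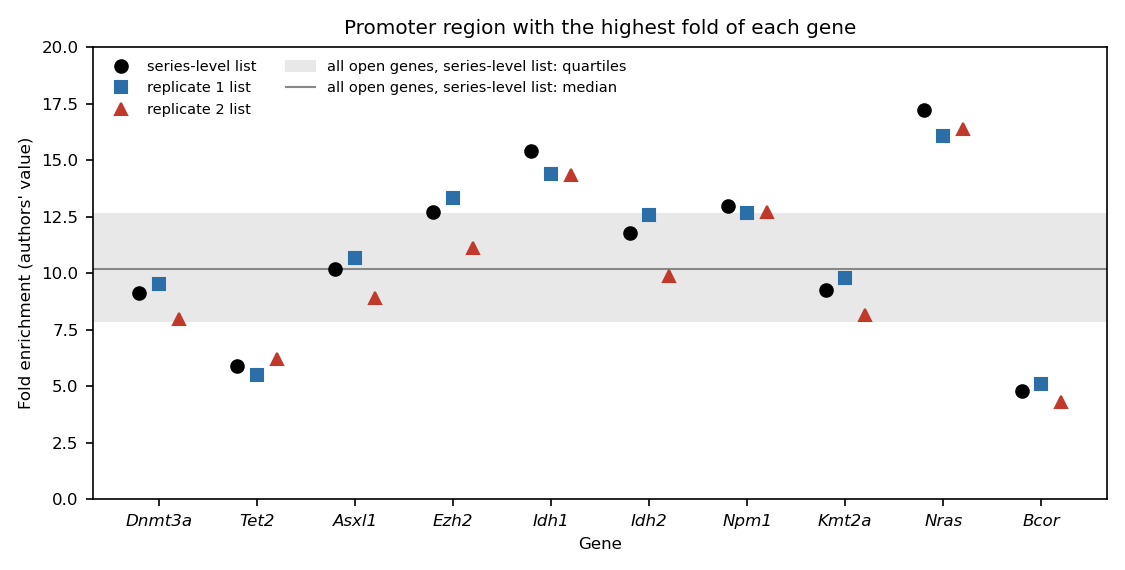
Fold enrichment (authors' value, vertical axis) of the promoter region with the highest fold of each of the 10 genes (horizontal axis), in the series-level list (circles) and in the lists of replicate 1 (squares) and replicate 2 (triangles). The grey band spans the quartiles, 7.89 to 12.6, and the line marks the median, 10.2, over all open genes in the series-level list. Nras stands highest at 17.2 and Bcor lowest at 4.79.

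Among the DNA methylation genes, Dnmt3a had 18 regions over its 108.4 kb body and flanks on chromosome 12 (3806007 to 3914443, + strand). Bcor, one of the Polycomb and Trithorax genes, had 17. Which of them had more depended on the list and the window, with 12 for Dnmt3a and 15 for Bcor in the gene body alone and 30 and 36 in the looser series-level list called between replicates. The density of Dnmt3a, 10.7 regions per 100 kb, exceeded or equalled that of 82.3% of all genes. Dnmt3a has a long transcript, which encodes 908 residues, and a short one from an internal start, the Dnmt3a2 isoform, of 689 residues. Both starts had a summit of similar fold within 1000 bp, but neither start lay inside a region of the series-level list. Nearest the long start (3807030) the summit lay at -623 bp, with a fold of 9.10 in the series-level list, 9.50 in replicate 1 and 7.97 in replicate 2. It lay closer, at 120 bp, to another annotated Dnmt3a start. Nearest the internal start (3891728), in intron 6 of the long transcript, the summit lay at -276 bp, with a fold of 7.87, then 8.60 in replicate 1 and 6.87 in replicate 2. Another promoter region, in intron 3, 905 bp from a further annotated start, had a fold of 7.96 and was likewise in both replicates (9.88 and 5.79). In the authors' looser series-level list a further summit of fold 3.10 lay 71 bp from the long start.

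Away from its starts, Dnmt3a had 15 distal regions, of which 9 lay in introns, 5 upstream and 1 downstream. The strongest distal region of all 10 genes lay at -15.1 kb (chr12:3791743-3792187), with a fold of 15.4 in the series-level list, 16.1 in replicate 1 and 13.6 in replicate 2. Its CpG observed over expected ratio in the 301 bp around the summit was 0.82, while the median of all distal regions in the series was 0.22. A second upstream region, at -25.35 kb inside the neighbouring gene Dtnb, had a fold of 13.0 (14.0 in replicate 1 and 11.3 in replicate 2). In intron 1 a region at 27.6 kb had a fold of 9.24, then 9.95 and 7.66 in replicates 1 and 2. In intron 2 the region at 36.6 kb had a fold of 8.15, then 8.47 and 6.98. Each of these intron summits had a match to the PU.1 motif (GAGGAAGT, or ACTTCCTC on the other strand) within 50 bp. PU.1 is the product of Spi1 and is required for the myeloid lineage. The 151 bases around these 3 summits follow, on the + strand of GRCm38 (mm10). Capitals mark motif letters within 50 bp of the summit. The first is shown as the strongest distal region and has none of the 11 motifs searched. The region at 36.6 kb and the one at -15.1 kb were chosen for printing after their values were seen.

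Dnmt3a at -15.1 kb (chr12:3791880-3792030): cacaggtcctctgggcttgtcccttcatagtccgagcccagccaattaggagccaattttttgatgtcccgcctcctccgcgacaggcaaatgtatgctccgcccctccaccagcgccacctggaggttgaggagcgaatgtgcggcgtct
Dnmt3a at 27.6 kb (chr12:3834551-3834701): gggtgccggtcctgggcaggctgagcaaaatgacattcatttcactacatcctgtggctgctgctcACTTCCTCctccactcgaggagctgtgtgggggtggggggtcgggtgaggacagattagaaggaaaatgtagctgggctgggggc
Dnmt3a at 36.6 kb (chr12:3843533-3843683): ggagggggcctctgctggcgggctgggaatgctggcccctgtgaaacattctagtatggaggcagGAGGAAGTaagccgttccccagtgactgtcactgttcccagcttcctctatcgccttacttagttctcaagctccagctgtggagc

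The lowest fold of all 77 regions, 1.83, also belonged to Dnmt3a, at 36.2 kb in intron 2, next to the region at 36.6 kb with the PU.1 match. It overlapped a region of replicate 1 whose summit lay 355 bp away, so the fold of 8.47 there belongs to the neighbouring summit. Of the 18 Dnmt3a regions, 11 were in both replicates' lists, 4 in that of replicate 1 alone and 3 in neither. The replicates' own lists held 14 regions in this window in replicate 1 and 11 in replicate 2.

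Tet2, on chromosome 3 (133463679 to 133545139, - strand), had 8 regions (7 in the list of replicate 1 and 5 in that of replicate 2) and a weak but broad promoter. Its promoter region was 1420 bp wide, with the summit 38 bp from a start, a fold of 5.88 in the series-level list, 5.48 in replicate 1 and 6.19 in replicate 2. Of all regions in the series, 22.1% had a fold as low or lower. All 3 of its strongest regions were distal. The region just past the gene's end, at 80.9 kb from the start, had a fold of 10.9 (12.0 in replicate 1 and 8.36 in replicate 2). A wider one at 107.7 kb had a fold of 10.8 (10.7 and 10.7). In intron 1 the region at 18.5 kb had a fold of 9.97 (10.2 and 8.81). No distal Tet2 summit had a match to the PU.1, CEBP (TTGCNNAA) or RUNX (TGTGGTT) motifs, which bind the factors named after them that drive myeloid differentiation. Therefore the promoter is shown, as the part of the summit's surroundings on the + strand that lies outside exons. It is rich in CpG, with an observed over expected ratio of 1.02, and holds none of the 11 motifs.

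Tet2 promoter (chr3:133544391-133544479): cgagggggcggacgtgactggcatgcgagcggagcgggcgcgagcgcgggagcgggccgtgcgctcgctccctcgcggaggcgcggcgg

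The Polycomb and Trithorax genes differed from each other in layout. Asxl1, a scaffold for the deubiquitinase Bap1, had 7 regions on chromosome 2 (153345829 to 153404007, + strand). All 7 were in the list of replicate 1, while that of replicate 2 held 4. Its promoter summit at -203 bp had a fold of 10.2, then 10.65 in replicate 1 and 8.91 in replicate 2. In the series-level list the strongest Asxl1 region lay at -26.4 kb, inside Kif3b (a kinesin motor subunit), with a fold of 12.0 in the series-level list, 14.05 in replicate 1 and 9.0 in replicate 2. Summits with matches to more than 1 motif were found in a pair of other regions. The one at -9.51 kb (fold 9.25, then 10.75 and 7.17) had CEBP, RUNX and E-box (CAGCTG) matches. The one at 5.19 kb in intron 1 (fold 10.1, then 10.2 and 9.11) had PU.1 and AP-1 (TGANTCA) matches. These 3 sequences are shown because they carry the PU.1, CEBP and RUNX matches of Asxl1. The last pair was chosen after the values were seen.

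Asxl1 at -26.4 kb (chr2:153319375-153319525): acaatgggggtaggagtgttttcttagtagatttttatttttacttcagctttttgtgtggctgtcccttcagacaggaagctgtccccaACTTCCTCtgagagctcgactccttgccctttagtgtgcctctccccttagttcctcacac
Asxl1 at -9.51 kb (chr2:153336260-153336410): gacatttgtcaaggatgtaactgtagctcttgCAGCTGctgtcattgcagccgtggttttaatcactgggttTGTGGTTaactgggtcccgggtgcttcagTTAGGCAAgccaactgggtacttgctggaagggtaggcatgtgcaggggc
Asxl1 at 5.19 kb (chr2:153350958-153351108): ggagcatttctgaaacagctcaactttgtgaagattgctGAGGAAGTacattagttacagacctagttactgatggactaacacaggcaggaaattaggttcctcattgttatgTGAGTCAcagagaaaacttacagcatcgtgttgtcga

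Ezh2, the catalytic subunit of Polycomb repressive complex PRC2, had 3 regions on chromosome 6 (47530139 to 47595341, - strand) and a strong, wide promoter. The promoter region was 1584 bp wide, the widest of the 77, with a fold of 12.7 in the series-level list, 13.3 in replicate 1 and 11.1 in replicate 2. A distal region at -26.2 kb reached nearly the same fold, 12.3 (12.4 and 10.8), and had an AP-1 match. Beside it, at -26.8 kb, a region of fold 5.53 was in neither replicate's list. The body of the gene held no summit over 65.0 kb in the series-level list. In the looser list it held 6 regions besides the promoter, of fold 2.50 to 6.06.

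Ezh2 promoter (chr6:47595059-47595183): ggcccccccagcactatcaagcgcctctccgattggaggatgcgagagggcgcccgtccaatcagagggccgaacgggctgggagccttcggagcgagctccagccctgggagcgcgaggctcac

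Kmt2a, which encodes the histone methyltransferase MLL that is fused to many partners in leukaemia, had 6 regions on chromosome 9 (44803355 to 44881296, - strand). They gathered at the 5′ end, with 5 of 6 within 13.45 kb of the start. Its promoter summit at -169 bp had a fold of 9.27, then 9.77 in replicate 1 and 8.16 in replicate 2. A second promoter region at -936 bp had a fold of 5.29 (5.85 and 4.20), and a distal one at -1.48 kb a fold of 4.75 (4.65 and 4.65). The strongest distal Kmt2a region, at 13.45 kb in intron 1, had a fold of 6.21 and was in neither replicate's list. The region at 1.45 kb, of fold 4.12, was in the list of replicate 2 alone (3.73), the only such region of the 77. The sixth region was the promoter of Tmem25 past the other end of the gene (fold 8.30, then 9.53 and 6.48). Between intron 1 and the gene's end, 64.5 kb of the body held no summit. The Kmt2a promoter stretch had a GC content of 76.1% around its summit and held a KLF/SP match (GGGGCGGGG, bound by the SP and KLF families) away from the summit, in capitals below.

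Kmt2a promoter (chr9:44881316-44881614): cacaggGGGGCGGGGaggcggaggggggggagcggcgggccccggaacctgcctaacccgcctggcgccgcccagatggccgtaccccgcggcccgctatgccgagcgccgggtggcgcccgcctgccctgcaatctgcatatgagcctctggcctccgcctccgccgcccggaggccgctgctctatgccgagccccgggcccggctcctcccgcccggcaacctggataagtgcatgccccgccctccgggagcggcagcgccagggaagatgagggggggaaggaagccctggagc

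Bcor, a corepressor that brings a variant PRC1 complex to its targets, had 17 regions on chromosome X (12036740 to 12160355, - strand), and 15 of them lay in its 98.6 kb intron 1. These 15 were weak, with a median fold of 5.10 and a range of 3.85 to 7.53. They were rich in CpG. The median GC content was 65.1% and their median CpG observed over expected ratio 0.69, with 13 of 15 above 0.5, a limit chosen after the values were seen. Of the 12 that were distal, 10 (83.3%) exceeded this limit, against 5 of the 48 distal regions of the other genes and other Bcor positions, and 8.78% of all distal regions in the series. The introns of Dnmt3a, a gene of like length with 11 intron regions, had a median ratio of 0.17 and a median fold of 7.87. All distal regions of the series above the same limit had a median fold of 7.95. On the X chromosome, of which male cells carry a single copy, the median fold of all regions was 9.19, against 8.08 on autosomes.

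**Figure D2:**
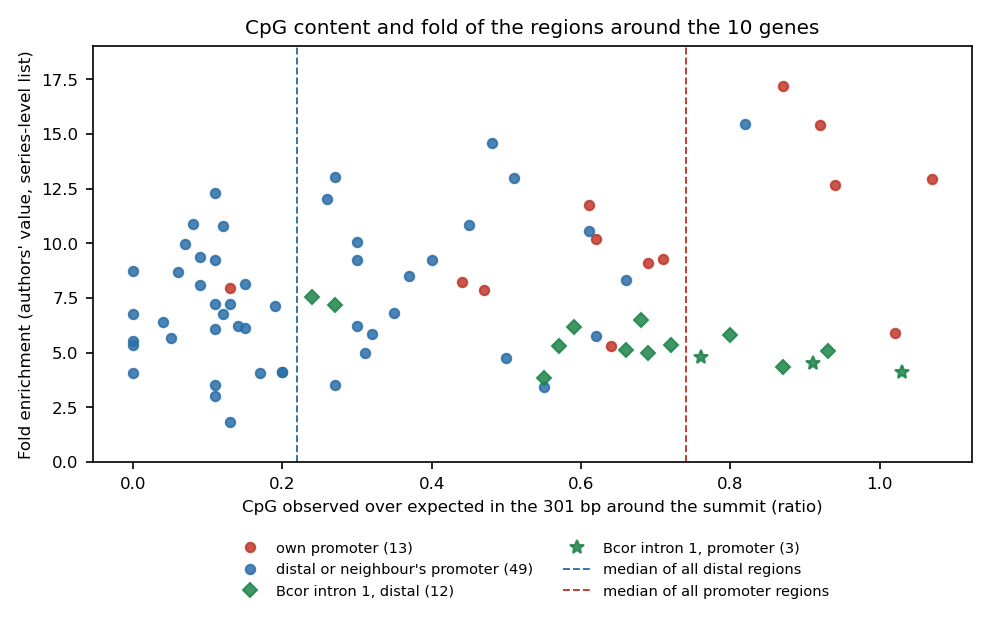
CpG observed over expected ratio in the 301 bp around each summit (horizontal axis) and fold enrichment in the series-level list (authors' value, vertical axis) for the 77 regions. Green symbols are the 15 regions in Bcor intron 1, red circles other promoter regions of the 10 genes, and blue circles the remaining regions. Dashed lines mark the medians of all distal regions (0.22) and all promoter regions (0.74), and the green symbols lie between folds of 3.85 and 7.53, most of them right of 0.5.

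The annotated Bcor starts had little accessibility in this list. The upstream start (12160355) had no summit within 1000 bp. The nearest lay 1446 bp into the gene, with a fold of 5.34, then 5.80 in replicate 1 and 4.53 in replicate 2, and the looser list had a summit of fold 3.13 at 199 bp. The internal start (12080553) had a summit at -6 bp with a fold of 4.10 that was in neither replicate's list. A region at 31.97 kb, 15 bp from another annotated start, had a fold of 4.52, was in neither list and had a CEBP match. The region that made Bcor count as open in both replicates lay 751 bp from the internal start at 12080553, with a fold of 4.79 (5.10 and 4.30). The strongest Bcor regions lay outside the gene. At 145.1 kb, past its 3′ end, the fold was 13.0 (14.5 in replicate 1 and 9.10 in replicate 2). At -5.01 kb it was 9.39 (9.36 and 8.19), with a PU.1 match. The upstream region with the PU.1 match and the stretch at the internal start outside exons are shown to contrast their letters. The second was chosen after its values were seen.

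Bcor at -5.01 kb (chrX:12165291-12165441): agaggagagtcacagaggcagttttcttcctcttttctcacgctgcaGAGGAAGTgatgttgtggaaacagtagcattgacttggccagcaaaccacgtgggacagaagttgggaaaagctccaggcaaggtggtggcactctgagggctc
Bcor internal start (chrX:12080554-12080634): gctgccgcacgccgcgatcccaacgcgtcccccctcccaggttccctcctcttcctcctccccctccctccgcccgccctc

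**Figure D3:**
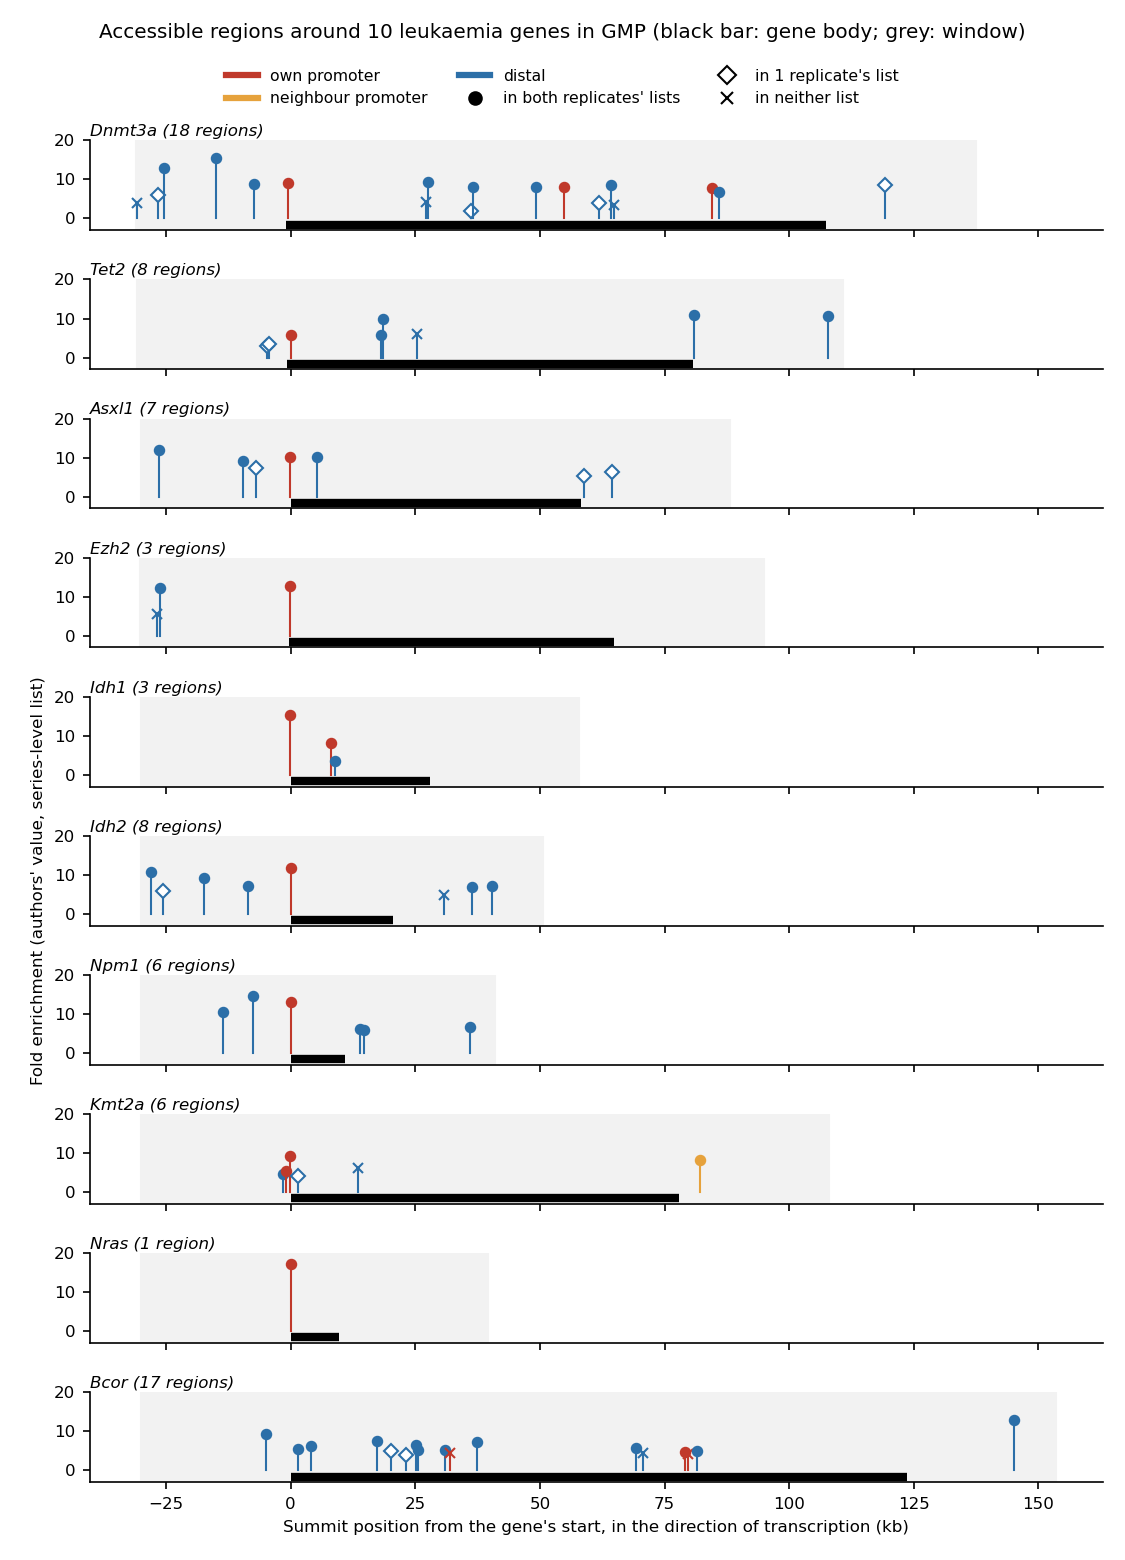
Position of each summit from the gene's start in kb, in the direction of transcription (horizontal axis), and its fold enrichment in the series-level list (authors' value, vertical axis), 1 panel per gene. Black bars are gene bodies, grey areas the windows, red own promoters, blue distal regions and orange the Tmem25 promoter. Filled circles are in both replicates' lists (54 regions), diamonds in 1 list (13) and crosses in neither (10). Nras has 1 region, while Dnmt3a has 18 and Bcor 17.

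The promoter folds of both metabolic genes lay above the median of all open genes in the series-level list, that of Idh1 in a region shared with a neighbour. Idh1, the cytosolic and peroxisomal isocitrate dehydrogenase, lies on chromosome 1 (65158616 to 65186500, - strand) head to head with Pikfyve, a lipid kinase. They shared a promoter region, with a summit 39 bp from a Pikfyve start and 184 bp from the upstream Idh1 start, and a fold of 15.4 in the series-level list, 14.4 in replicate 1 and 14.3 in replicate 2. This promoter therefore cannot be assigned to Idh1 alone. An internal Idh1 start (65179181) had a region 1397 bp wide with a fold of 8.24 (8.52 and 7.82). The other Idh1 region, of fold 3.53 (3.63 and 3.30), lay beside it in intron 1, and all 3 were in both replicates' lists.

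Idh1 and Pikfyve promoter (chr1:65186514-65186682): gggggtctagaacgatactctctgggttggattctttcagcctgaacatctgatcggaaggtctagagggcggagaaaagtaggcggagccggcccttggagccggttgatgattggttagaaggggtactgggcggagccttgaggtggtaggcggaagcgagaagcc

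Idh2, the mitochondrial enzyme, had 8 regions around its 20.5 kb body on chromosome 7 (80094846 to 80115392, - strand). Its promoter summit lay 12 bp from the start with a fold of 11.75 (12.6 in replicate 1 and 9.89 in replicate 2). No other summit lay in the gene. Of 7 distal regions, 4 lay upstream and 3 downstream, inside Zfp710. The strongest, at -28.1 kb, had a fold of 10.85 (10.99 and 9.29). The region at -17.3 kb, of fold 9.25 (10.2 and 6.46), had an IRF match and a CTCF match side by side. IRF factors act in myeloid and interferon programmes, and CTCF anchors chromatin loops. The region at 40.4 kb, of fold 7.15 (7.55 and 6.50), had a CEBP match. The first of these was chosen for printing after its values were seen.

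Idh2 at -17.3 kb (chr7:80132644-80132794): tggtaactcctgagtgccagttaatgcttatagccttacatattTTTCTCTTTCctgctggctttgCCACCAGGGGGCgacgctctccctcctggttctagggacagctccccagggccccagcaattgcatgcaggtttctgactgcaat
Idh2 at 40.4 kb (chr7:80074902-80075052): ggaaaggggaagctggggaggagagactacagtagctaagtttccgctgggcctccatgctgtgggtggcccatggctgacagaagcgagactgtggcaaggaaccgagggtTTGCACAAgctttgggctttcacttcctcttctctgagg

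Npm1, on chromosome 11 (33152287 to 33163206, - strand), had 6 regions, each in both replicates' lists. Its promoter region was 1565 bp wide with a fold of 12.95 in the series-level list, 12.65 in replicate 1 and 12.7 in replicate 2. Upstream, a region at -7.50 kb (chr11:33170365-33170857) had a fold of 14.6 (15.6 and 11.15), above that of the promoter in the series-level list and in replicate 1 but below it in replicate 2, and one at -13.6 kb had 10.55 (10.85 and 7.97). The 3 downstream regions were weaker, with folds of 6.22, 5.78 and 6.78. They lay nearer to a start of Fgf18, a growth factor gene without an open promoter in the series-level list, than to that of Npm1. In the looser list a summit of fold 3.08 lay 417 bp from an Fgf18 start. Of the 3 downstream regions, the one at 14.0 kb had a RUNX match.

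Npm1 at 14.0 kb (chr11:33149147-33149297): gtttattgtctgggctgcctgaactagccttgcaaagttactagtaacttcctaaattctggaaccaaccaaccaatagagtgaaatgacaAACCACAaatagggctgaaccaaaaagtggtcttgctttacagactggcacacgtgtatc

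Nras, the signalling member, had a single region in its window on chromosome 3 (103058285 to 103067914, + strand), and it had the highest fold of the 77 in the series-level list. Its summit lay 5 bp from the start, with a fold of 17.2 in the series-level list, 16.1 in replicate 1 and 16.4 in replicate 2. Of all promoter regions in the series, 97.9% had a fold as high or lower. The looser list also held 1 region there, and flanks of 100 kb held 9 regions. Upstream of the start, outside exons, lay overlapping KLF/SP matches, shown in capitals. They lay more than 50 bp from the summit and are not the match counted there.

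Nras promoter (chr3:103058187-103058284): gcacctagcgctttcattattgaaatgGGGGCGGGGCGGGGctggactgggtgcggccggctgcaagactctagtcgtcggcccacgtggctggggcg

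Over the 10 genes, 16 of the 77 regions lay at their own promoters, 1 at a neighbour's promoter and 60 were distal, while 20.7% of all regions in the series lay at promoters. The distal ones comprised 28 in introns, 20 upstream and 12 downstream, with 0 in exons. Of the 60, 6 lay nearest to a start of another gene: Dtnb in the Dnmt3a window, Nol4l in that of Asxl1 and Fgf18 in that of Npm1. Dnmt3a and Bcor together held 35 regions and the other 8 genes 42. The median density was 5.79 regions per 100 kb, against 5.40 over all genes and 7.14 over all genes with an open promoter. Each of the 10 windows held at least 1 region, as did the windows of 84.2% of all genes. At the edge of the 30 kb flank, the last region inside (Dnmt3a, 29.8 kb from the body) had a fold of 4.07 and the first outside (Tet2, 30.0 kb) a fold of 5.11.

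**Figure D4:**
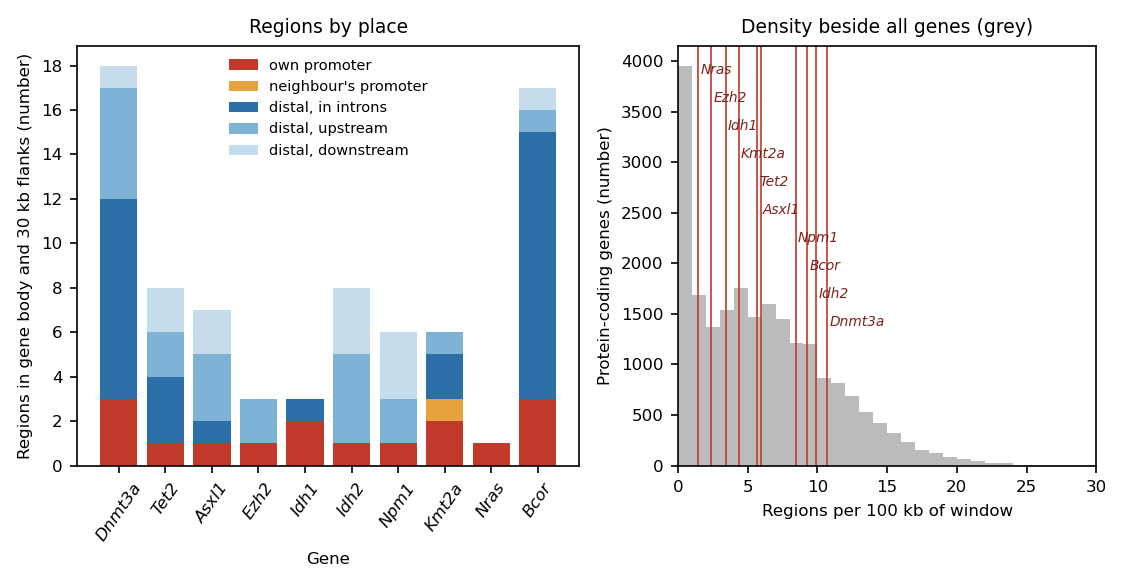
Left, number of regions in the gene body and 30 kb flanks of each gene (vertical axis), stacked by place. Right, number of protein-coding genes (vertical axis) by regions per 100 kb of window (horizontal axis) for all genes in grey, with the 10 genes as red lines from Nras (1.44) to Dnmt3a (10.7).

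Distal regions around these genes had a median fold of 6.47, against 7.90 over all distal regions. Those around these genes include the 12 of Bcor intron 1, none with a fold above 7.53. Of the 60, 11 (18.3%) had a fold of 10 or more, against 28.3% of all distal regions. This limit was set after the values were seen. These 11 belonged to 7 genes, with none at Idh1, Kmt2a or Nras. Own promoters had a median fold of 8.67, against 8.98 over all promoter regions, and a median width of 854 bp, against 783 bp. Promoter regions of 1200 bp or more were found in 5 of the 10 genes (Tet2, Ezh2, Idh1, Idh2 and Npm1). Over all 21670 genes, 2495 (11.5%) had one, but only 13299 of the 21670 had an open promoter, as all of the 10 did. Again the limit was set after the values were seen. More than 1 promoter region was found in 4 genes (Dnmt3a, Idh1, Kmt2a and Bcor), against 22.6% of open genes.

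Most regions were also in both replicates' own lists. The series-level list was itself made from these 2 replicates, so the overlap is not an independent check of its regions. Of the 77, 54 (70.1%) overlapped regions of both replicates' lists, against 66.1% of all regions. The Wilson 95% interval of this share, 59.2 to 79.2, covers counting error only and treats regions as independent. The 77 regions are not replicates, and 35 of them belong to Dnmt3a and Bcor, so the interval is no test against all regions. A further 12 of the 77 were in the list of replicate 1 alone (all regions 15.8%) and 1 in that of replicate 2 alone (3.35%). The other 10 were in neither (14.7%). Own promoters were in both lists in 14 of 16 cases (all promoter regions 83.1%), and the other 2, both of Bcor, were in neither list (all promoter regions 7.16%). Distal regions were in both lists in 39 of 60 cases (all distal regions 61.7%) and in neither in 8 (16.7%). Regions in both lists had a median fold of 8.27, those in the list of replicate 1 alone 5.16 and those in neither 4.43. Of the 10 in neither list, all 10 were in the looser list of replicate 1 and 9 in that of replicate 2. Summits lay at a median distance of 4 bp from the summit in either replicate, whose data also made the series-level list. They lay within 20 bp in 63 of 66 regions of replicate 1 and in 51 of 55 of replicate 2.

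Matches to PU.1, CEBP or RUNX motifs were found at 13 of the 60 distal summits (21.7%), against 24.8% of all distal summits. They belonged to 5 genes: Dnmt3a and Bcor with 4 summits each, Asxl1 with 3, and Idh2 and Npm1 with 1 each. PU.1 letters were found at 7 distal summits (11.7%, all distal summits 8.73%), CEBP at 4 (6.67%, all 10.6%) and RUNX at 3 (5.00%, all 7.26%). AP-1 and CTCF matches were each found at 3 (all 6.47% and 6.00%), E-box at 4 (all 7.98%), IRF at 2 (all 1.75%) and KLF/SP at 1 (all 0.902%). The ETS (ACCGGAAGT) and CRE (TGACGTCA) motifs were found at none, against 0.170% and 0.269% of all distal summits. The motif of the GATA factors, which act in red cell and mast cell precursors, reads AGATAA and was also found at none (all 3.56%). At the 17 promoter summits, KLF/SP was found at 2, of Nras and of Kmt2a at -936 bp (11.8%, all promoter summits 9.28%). CEBP and E-box were found at 1 promoter summit each (all 4.32% and 5.66%), so that 1 held any of PU.1, CEBP and RUNX (all 9.01%). PU.1, RUNX, AP-1, IRF and CTCF were found at none of the 17, against 3.01%, 2.18%, 2.53%, 1.05% and 1.23% of all promoter summits. ETS, CRE and GATA were likewise found at none, against 0.977%, 1.75% and 1.37%. Both strands were searched, and summits with several motifs, such as Asxl1 at -9.51 kb, count under each. A match describes letters only, and binding was not measured.

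Partners of the 10 genes, listed together with other leukaemia genes, were mostly open as well. The list of 51 held paralogs, complex partners and pathway genes, and also genes of other roles, such as splicing factors and cohesin subunits. The partners were not counted apart from these. Of the 51, 47 (92.2%, all genes 61.4%) had an open promoter in the series-level list, with a median fold of 9.83. In both replicates 45 had one (all genes 56.1%). The strongest were Phf6 (a chromatin protein mutated in leukaemia, fold 16.1), Idh3a (a subunit of the mitochondrial NAD-dependent isocitrate dehydrogenase, 16.0), U2af1 (a splicing factor, 14.8), Rad21 (a cohesin subunit, 14.3) and Dnmt1 (the maintenance DNA methyltransferase, 13.5). The promoters of Asxl3, Kmt2d, Npm2 and Wt1 had no summit in the series-level list or in either replicate's list. In each of the authors' looser series-level lists 49 of the 51 had an open promoter, so not all of these stayed without one. Tet1, a paralog of Tet2, was open in replicate 1 (5.81; series-level 6.02) but not in replicate 2. Bcl6, the repressor that Bcor binds, had a promoter region of fold 3.75 in neither replicate's list. Hras, a paralog of Nras, was open in both replicates, with a fold of 10.85 (12.0 in replicate 1 and 9.32 in replicate 2).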

How the data were processed

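ATAC-seq was done on 2 biological replicates of 1 group, GMP. Per the file headers and file list, the authors deposited lists of accessible regions in mm10, without read counts. Which aligner and peak caller were used, and whether reads were shifted for Tn5, is not stated in the sources used here. As deposited by the authors, each row of a list carries a fold enrichment (ratio), a score, the -log10 of a p-value and a q-value, and a summit. The 10 genes, the list of 51 partners and other leukaemia genes, and the motifs were chosen with earlier results of these data known. Genes were grouped by role, and all 10 are named. Of each gene the promoter and distal regions of highest fold are named. Of the list of 51, those without an open promoter and the 5 of highest fold are named. Further regions were named after their values were seen.

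Rows of the series-level conservative list overlapping by 1 bp were merged, each region taking the summit and fold of its row of highest fold. Starts, exons and introns came from GENCODE vM21 (protein-coding transcripts), and sequences from the GRCm38 RefSeq genome, in which 13 of 13 RefSeq promoter sequences of these genes were found unchanged. Distances of regions count from the 5′ end of the CCDS transcript with the longest span. Motifs were searched as letters within 50 bp of summits on both strands. Scripts (Python 3.11.15, pysam 0.24.0, scipy 1.17.1, samtools 1.23.1) were tested on simulated data. Replicates are 2 samples of 1 group with no contrast, so no test was run. Other lists, windows, thresholds and single replicates were tried as alternatives. Ranked lists were not used here.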

Additional observations from a re-analysis of the deposited data

How the results depend on the processing

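The number of regions around the 10 genes depended on the list, the fold and the window. Against 77 regions, 60 of them distal, the looser series-level list called between replicates gave 148 and 125, and the looser list called on parts of the pooled reads 142 and 119. Regions at or above the median fold of 8.09 numbered 31, with 21 distal. Flanks of 100000 bp gave 169 and 131, and the gene body alone 40 and 28. From 1 replicate's list alone, regions numbered 56 to 68, distal ones 41 to 53, and members with an open promoter 10 in each. Of the 51 partners and other leukaemia genes, 45 to 46 had an open promoter there. In each of the looser series-level lists 49 of the 51 had one, and at or above the median fold 32 did. For these counts at the looser lists and at the median fold, the share over all genes was not computed. The 70.1% of regions in both replicates' lists became 36.5% and 38.0% of the regions in the looser series-level lists. It became 96.8% at or above the median fold and 97.4% against the replicates' looser lists. For these alternatives the share over all regions was not computed. Myeloid motifs, at 13 of 60 distal summits, were found at 21 of 60 within 100 bp and at 24 of 125 in the looser list. Shares over all distal summits were not computed under these alternatives. All 10 promoters stayed open under every list and promoter window tried, except at or above the median fold. There Tet2 and Bcor were lost (8 of 10), and the share over all genes was not computed. Of 90 counts per gene under the alternatives, 49 were within 1.5 times the count given and 41 were not. No paired analysis was possible because there is 1 group. Depth is unknown, and 2 samples limit the precision of every value.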
